A study of Danio rerio with 2 samples.

Results

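Long transcribed regions of the zebrafish (Danio rerio) genome were followed in RNA from 2 sorted neural cell populations of the embryonic spinal cord. A region is a stretch of the Zv9 build in which the deposited rows of either library overlap. Of 46045 such regions, 1155 had a merged span of 100 kb or more, and 1130 of these were taken as members, because both samples listed a row there and at least 1 of them reached an FPKM of 1. FPKM counts fragments per kilobase of transcript relative to all fragments mapped in the library. The members made up 4.99% of the 22655 counted regions, which met the same conditions at any span. The span, the presence of a row in both samples and the FPKM minimum chose the members and are not findings.

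Embryos were used at 20 hours post fertilization, and tails were cut free at somite 3 before dissociation and fluorescence-activated sorting of neural cell bodies into Trizol, followed by polyA selection. The 1020st sample came from cells marked through the Gal4 driver 1020st and carries the label of a subpopulation positive for olig2, a gene for a transcription factor of precursors that give motor neurons and oligodendrocytes. The HuC sample came from cells marked through the driver HuC, labelled panneuronal, and the HuC protein (Elavl3) binds RNA in young neurons. Gal4 is a yeast activator that switches on a fluorescent reporter in the cells in which its driver is active, so each population is as pure as its driver and its sort, and the labels leave it possible that some cells belong to both. Each group held 1 library, so the differences below could not be checked against replicates, and they are given without p-values or standard errors. The labels do not say how many embryos were pooled.

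A gene that spreads over a long stretch of genome is mostly intron. Its polymerase takes long to reach the end, its transcripts often start at several promoters, and smaller genes can lie inside its introns. In vertebrates many such genes encode adhesion molecules, guidance receptors and ion channels of neurons, and others encode cytoskeletal giants of muscle. The rows analysed here carry a chromosome span and no gene name, and no annotation of Zv9 was used. The regions are therefore given by position, whether a row is exonic or intronic was not analysed here, and olig2 and elavl3 themselves were not analysed here. In RNA from sorted cells, a lower level can mean fewer cells with a transcript or less of it per cell, which cannot be told apart.

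The FPKM of rows of 300 to 600 bp gave the depth, since most of these values are whole multiples of 1 fragment if the lowest value listed at a span is 10 fragments. The denominator was 38195710 fragments in the 1020st sample and 21878344 in the HuC sample, a ratio of 1.75. At a span of 500 bp, 10 fragments corresponded to 0.848 FPKM in the 1020st sample and 1.49 FPKM in the HuC sample. With these denominators, both values correspond to a length below 500 bp, so the length behind the FPKM is shorter than the span. How that length was set is not recorded in the rows. Weak short rows could therefore be listed in the 1020st sample at levels at which the HuC sample lists none. For long rows the span need not be the transcript length, since exons are not recorded. Their fragments were not recovered, so no counting interval can be given for them.

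The members covered 199 Mb. Their spans ranged from 100179 to 639240 bp, with a median of 151044 bp and quartiles of 121222 and 207146 bp, and 89 reached 300 kb. They were found on all 25 chromosomes. Chromosome 7 held the most, 75, and chromosome 25 the fewest, 24, while 7 lay on unplaced sequences. As a share of a chromosome's counted regions, members ranged from 3.10% on chromosome 3 to 7.21% on chromosome 9, and were 0.902% of the unplaced ones. The members just inside the limit lay on chromosome 15 from 2849264 to 2949442 (100179 bp), with 4.36 FPKM in the 1020st sample and 5.71 in the HuC sample, and on chromosome 1 from 17910507 to 18010694 (100188 bp), with 2.73 and 1.08 FPKM. Just outside were chromosome 1 from 27049845 to 27149794 (99950 bp), at 14.1 and 13.4 FPKM, and chromosome 14 from 12794389 to 12894193 (99805 bp), at 20.7 and 0.608 FPKM.

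Most members held a row of 100 kb or more in at least 1 library, usually beside other rows. A single row was listed in 118 members in the 1020st sample, in 138 in the HuC sample and in 44 in both. In 1077 of 1130, a row of either library spanned 100 kb or more by itself, and in 960 the longest row of either covered at least 90% of the region. The remaining 53 reached 100 kb through overlapping shorter rows. Both libraries listed a row of 100 kb or more in 679 members, the 1020st sample alone in 296 and the HuC sample alone in 102. The longest single row was 600403 bp in the 1020st sample and 451648 bp in the HuC sample.

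Between the samples, the longest row listed in a member was more often the shorter one in the HuC sample. The longest row of a member had a median of 139408 bp in the 1020st sample and 121450 bp in the HuC sample. It was longer by 10 kb or more in the 1020st sample in 429 members (38.0%) and in the HuC sample in 156 (13.8%), and it matched to within 1 kb in 347. In 72 members the HuC sample listed no row of 10 kb or more, against 16 in the 1020st sample. The imbalance was also present at high levels: among 98 members at 50 FPKM or more in both samples, the 1020st row was the longer in 31 and the HuC row in 18. Among 495 members under 10 FPKM in at least 1 library, these numbers were 233 and 72. The 1020st sample is the deeper one, and the part of depth in this difference was not tested. Members were chosen by merged span, and a long row in either library alone was enough to reach the limit. The part of this span rule in the difference in row length was not tested either. Row lengths in shorter counted regions were not compared between the samples.

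Where both samples listed a row of 100 kb or more, the ends often fell close together although the rows were listed separately for each. Strand is not recorded, so the start is the lower coordinate. In 335 of the 679 members a start matched within 100 bp, in 368 an end did, and in 168 a single pair of rows matched at both ends. Within 10 bp these numbers were 86, 125 and 11, and within 1000 bp they were 508, 512 and 381.

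When rows were summed, the members were more abundant than the shorter counted regions pooled, and the level rose with span. The summed FPKM had a median of 15.1 in the 1020st sample (5th to 95th percentile 3.64 to 89.0) and 14.1 in the HuC sample (2.59 to 90.2), while the other counted regions had medians of 4.68 and 4.73. Regions of 50 to 100 kb had medians of 11.1 and 10.6 FPKM, close to the 12.8 and 12.7 FPKM of members of 100 to 150 kb. A transcript listed in several rows enters such a sum once for each of them. A member held a median of 4 rows in each library, up to 58 in the 1020st sample and 50 in the HuC sample. With the highest single row, the medians were 6.05 and 5.75 FPKM, against 3.51 and 3.62 in the other regions. A highest row is taken over more rows where a region lists more, so row number enters this measure too. Members carried 7.52% of the summed FPKM of the counted regions in the 1020st sample and 7.35% in the HuC sample. Of the 100 most abundant counted regions, 5 in the 1020st sample and 4 in the HuC sample were members, near their share of all counted regions.

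**Figure D1:**
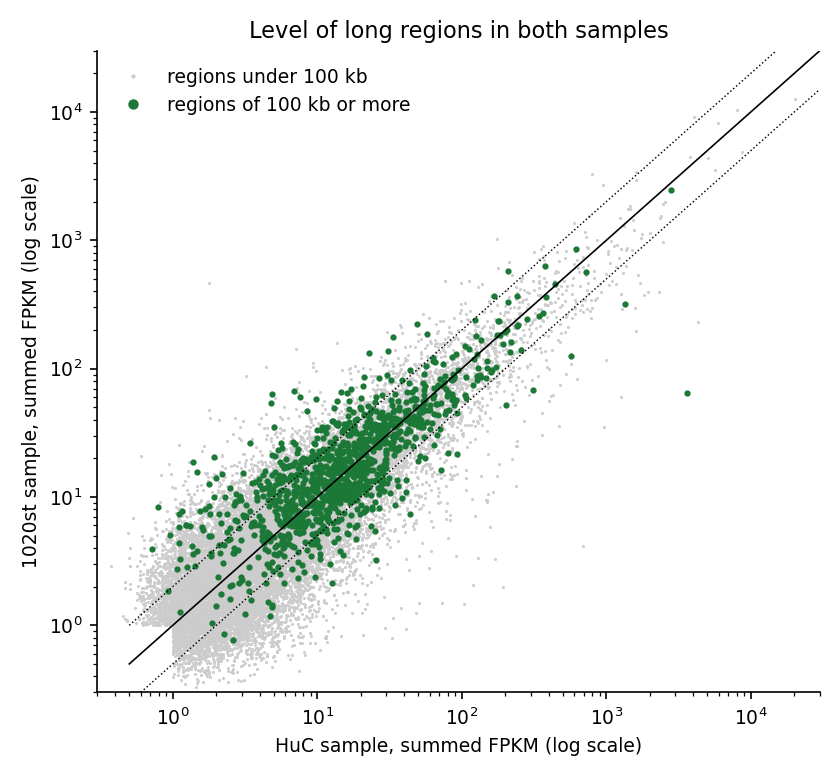
Summed FPKM of each counted region in the HuC sample (x axis, log scale) and the 1020st sample (y axis, log scale), with 1130 regions of 100 kb or more in green and 21525 shorter ones in grey; the solid line marks equal FPKM and the dotted lines a 2-fold difference without the added 1. Most long regions lie near the line, and 1 stands far to the right, at 64.5 FPKM in the 1020st sample and 3623 FPKM in the HuC sample.

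Rows inside a member fell into several size classes. Rows of 100 kb or more carried 33.8% of the members' FPKM in the 1020st sample and 36.4% in the HuC sample. Rows under 1000 bp made up 44.5% of the rows and 26.6% of the FPKM in the 1020st sample, and 34.9% and 23.5% in the HuC sample. The highest row was itself 100 kb or more in 565 members in the 1020st sample and in 475 in the HuC sample, and in both samples at once in 338. In 222 and 225 members it was shorter than 1000 bp. The highest row of a long region was thus a short one in 19.6% of members in the 1020st sample and 19.9% in the HuC sample. It was 100 kb or more in 50% and 42.0%.

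The member with the highest FPKM averaged over both samples was one with a short highest row. It lay on chromosome 12 from 22651625 to 22904585 and had 2454 FPKM in the 1020st sample and 2812 FPKM in the HuC sample, ranking 13 and 11 among all counted regions. Nearly all of this came from a row of 914 bp, at 2448 and 2805 FPKM, whose start and end were the same in both samples. The row of about 253 kb that surrounds it was at 4.47 FPKM in the 1020st sample and 2.68 FPKM in the HuC sample. In each sample the level of this region is thus that of the short row, and the long row around it is weak.

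On chromosome 16, from 16189842 to 16391922, the level belonged to the long row itself. The 1020st sample had a single row of 201412 bp at 321 FPKM, and the HuC sample had a row of 201416 bp at 1340 FPKM beside a minor one of 1041 bp at 2.70 FPKM. The HuC sample was the higher by 4.17-fold, computed like all folds and log2 ratios here on FPKM + 1, which understates differences of low regions. The added 1 is negligible at this level.

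By this average the second was a region on chromosome 6, described with the lowest ratios, at 64.5 FPKM in the 1020st sample and 3623 FPKM in the HuC sample, where it was the highest of all members. The other 2 of the 5 most abundant members had many rows. On chromosome 8, from 22934685 to 23411998, 28 rows of the 1020st sample summed to 859 FPKM and 24 rows of the HuC sample to 621 FPKM. Each library listed 12 rows of 100 kb or more there, with summed FPKM of 307 and 226. On chromosome 23, from 44891743 to 45218081, the sums were 565 FPKM over 33 rows and 721 FPKM over 40 rows. The rows of 100 kb or more went the other way in that region, with 99.1 FPKM in the 1020st sample and 6.22 FPKM in the HuC sample. The sum and the long rows thus give opposite directions, though the log2 ratio of the sum was only -0.35. The higher level of the 1020st long rows rests on a single row of 242357 bp at 97.6 FPKM.

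**Figure D2:**
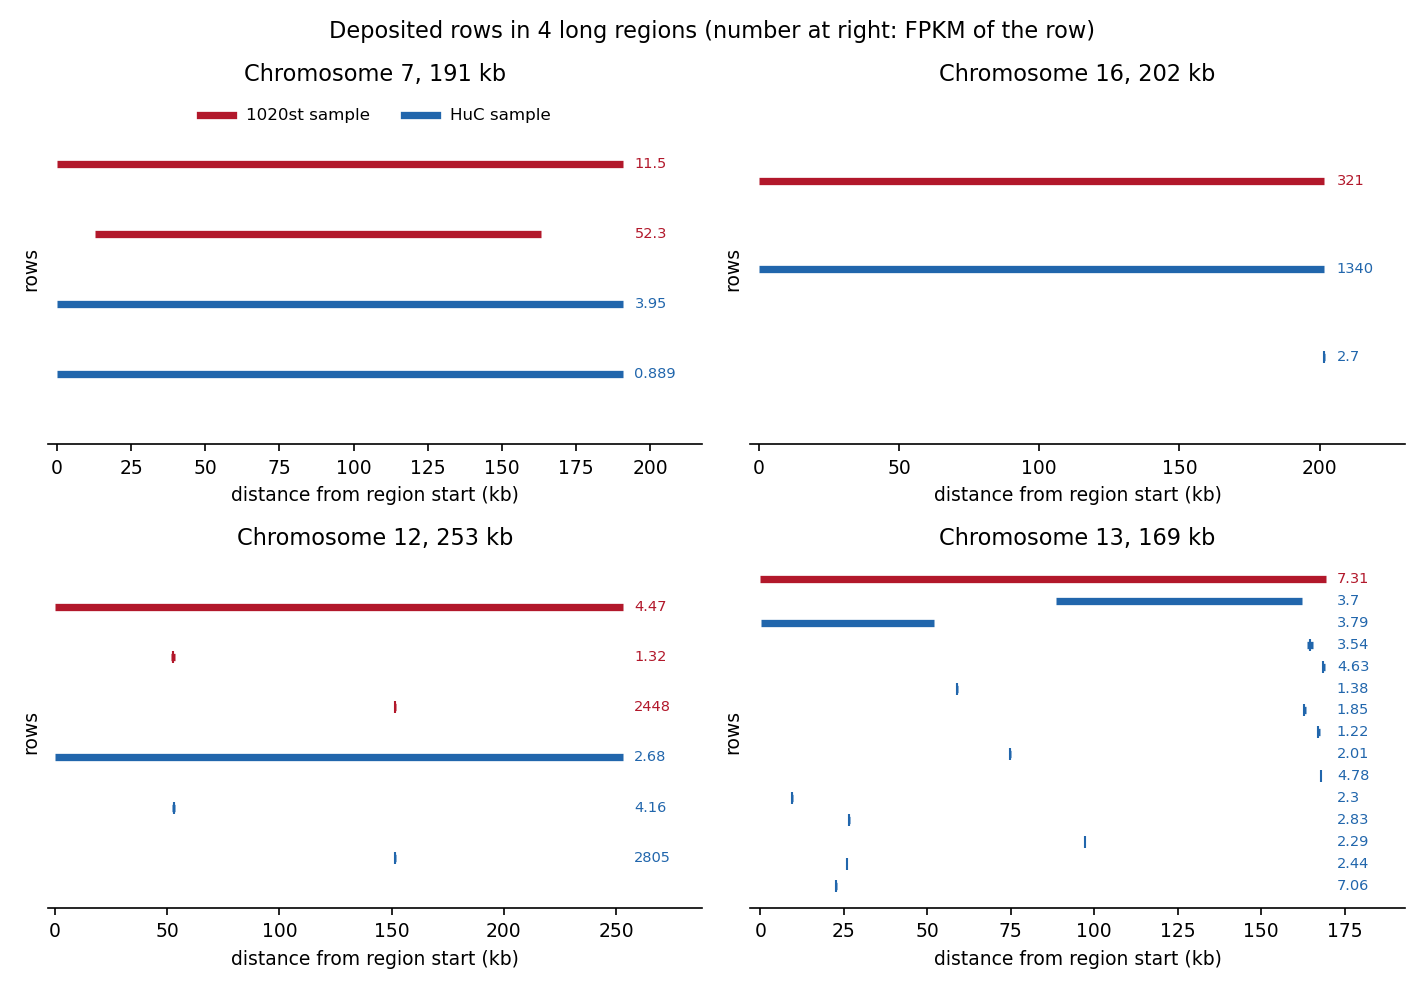
Deposited rows of 4 members, drawn as bars along the distance from the region's start in kb (x axis), with the 1020st sample in red and the HuC sample in blue; short rows are marked by a tick, and the number at the right is the FPKM of the row. On chromosome 7 and chromosome 16 long rows carry the level, on chromosome 12 a row of 914 bp does, and on chromosome 13 the HuC sample lists 14 rows where the 1020st sample lists 1.

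The levels of members in both samples were related. Across 1130 members, Pearson's r of log2(FPKM + 1) was 0.81 and Spearman's rho 0.76, against 0.87 and 0.80 across the 21525 other counted regions. These describe regions, which share the library and its depth. The median log2 ratio, 1020st over HuC, was 0.08 (5th to 95th percentile -1.17 to 1.58), against -0.05 in the other regions (-1.38 to 1.26). Within 2-fold lay 869 members (76.9%), against 80.8% of the others.

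At 2-fold, 180 members (15.9%) were higher in the 1020st sample and 81 (7.17%) in the HuC sample, where over all counted regions 8.83% and 10.6% were called. At 4-fold, the numbers were 23 (2.04%) and 10 (0.885%), against 0.945% and 1.37% over all counted regions. The members' share higher in 1020st was thus above the background and their share higher in HuC below it, on summed FPKM. This background is unlike the members in level, since the other regions had lower medians. With the FPKM minimum raised from 1 to 5, the 2-fold shares of members were 16.3% (1020st) and 7.11% (HuC). Those of all 13227 regions then counted were 12.8% and 14.1%. The gap in the 1020st share was thus narrower under the raised minimum, and the gap in the HuC share wider. With the minimum of 1, the 2-fold shares were 10.4% and 9.79% in counted regions of 10 to 50 kb, and 12.5% and 11.0% in those of 50 to 100 kb. A 1020st share above that of all counted regions was therefore not particular to the members. With the highest row in place of the sum, 126 (11.2%) were higher in 1020st and 93 (8.23%) in HuC, where 6.75% and 8.89% of all counted regions were called. At 4-fold on the highest row, 19 and 14 members were called, against 0.724% and 1.22% of all counted regions. Of the 180, 77 were also called on the highest row, and of the 81, 38 were. In 287 members the sum and the highest row had opposite signs. The members also split by the library that listed a row of 100 kb or more. In the 296 with one in the 1020st sample alone, the 2-fold shares on summed FPKM were 22.0% (1020st) and 6.76% (HuC). In the 102 with one in the HuC sample alone they were 15.7% and 10.8%. In the 679 with one in both they were 13.8% and 7.07%, and in the 53 with one in neither 9.43% and 3.77%. The part of the span rule in the members' shares was not tested.

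**Figure D3:**
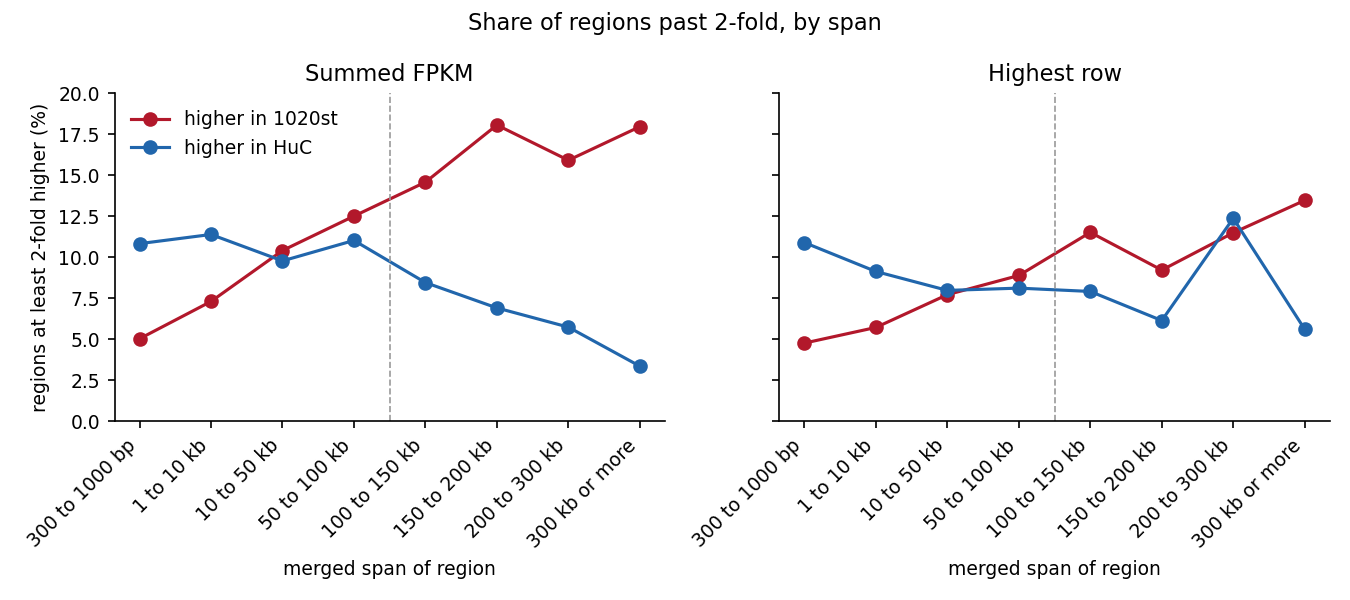
Percentage of counted regions at least 2-fold higher in the 1020st sample (red) or the HuC sample (blue) by merged span, on summed FPKM (left) and on the highest row (right); the dashed line marks 100 kb. On summed FPKM the red and blue curves stand at 5.04% and 10.8% at 300 to 1000 bp. Above the line they part in the other order, to 18.0% and 3.37% at 300 kb or more. On the highest row the red curve is the lower up to 10 to 50 kb. From 50 kb it is the higher except at 200 to 300 kb, at 11.5% and 12.4%.

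Within the members, the difference between the shares on summed FPKM was smallest at 100 to 150 kb and largest at 300 kb or more. It did not rise at each step between. The median number of rows also rose, from 3 in each sample at 100 to 150 kb to 8 in each at 300 kb or more. The part of row number in this difference was not tested. Among 555 members of 100 to 150 kb, 14.6% were higher in 1020st and 8.47% in HuC. Among 260 of 150 to 200 kb the shares were 18.1% and 6.92%, among 226 of 200 to 300 kb 15.9% and 5.75%, and among 89 of 300 kb or more 18.0% and 3.37%, which is 16 and 3 members. On the highest row the 1020st and HuC shares were 11.5% and 7.93% at 100 to 150 kb, 9.23% and 6.15% at 150 to 200 kb, 11.5% and 12.4% at 200 to 300 kb, and 13.5% and 5.62% at 300 kb or more, so the order turned in 1 of the 4 classes. By level, the 1020st share on summed FPKM was 9.84% among 61 members under 5 FPKM and 17.2% among 174 at 50 FPKM or more, with HuC shares of 8.20% and 8.62%.

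The direction on summed FPKM went with the number of rows listed. Each listed row adds to the sum, so this is expected from the measure and is not a separate finding. Over all counted regions 8.83% were called higher in 1020st and 10.6% in HuC. The 551 members with more rows in the 1020st sample had a median log2 ratio of 0.37, and 143 of them (26.0%) were at least 2-fold higher in 1020st and 14 (2.54%) in HuC. The 367 with more rows in the HuC sample had a median of -0.35, with 17 (4.63%) and 54 (14.7%) called. The 212 with equal numbers had a median of 0.06, with 20 (9.43%) and 13 (6.13%) called. On the highest row the medians were 0.00 with more rows in 1020st, 0.15 with more rows in HuC and 0.10 with equal numbers. In the 44 members with a single row in each library, the median log2 ratio was -0.09, and 6 (13.6%) were higher in 1020st and 3 (6.82%) in HuC.

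**Figure D4:**
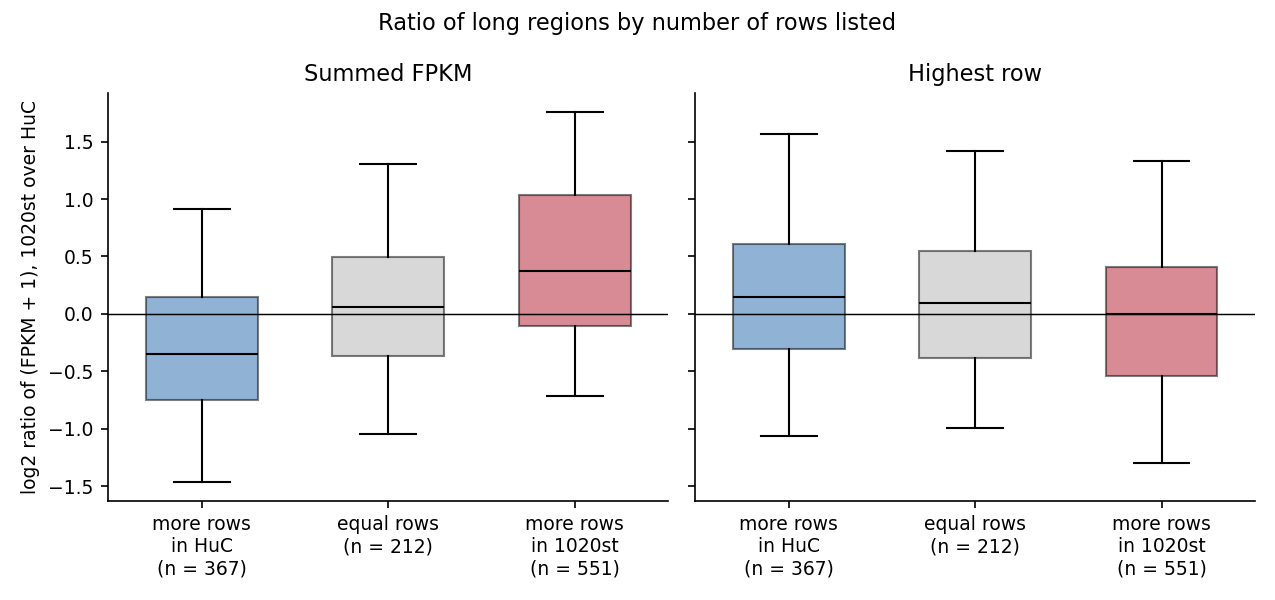
Log2 ratio of (FPKM + 1), 1020st over HuC, of long regions with more rows in the HuC sample, equal numbers or more rows in the 1020st sample, on summed FPKM (left) and on the highest row (right); boxes show quartiles and median, whiskers the 5th and 95th percentile of regions. On sums the medians are -0.35, 0.06 and 0.37, and on the highest row 0.15, 0.10 and 0.00.

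The balance of the calls shifted when short rows were left out while rows of medium length were kept. Members held 2918 rows under 1000 bp in the 1020st sample and 1961 in the HuC sample. Of 1940 rows of 300 to 600 bp in the 1020st sample, 1182 lay below the FPKM that 10 fragments give at that span in the HuC sample, which listed 1019 such rows. When rows under 500 bp were left out, 117 of 1127 long regions were at least 2-fold higher in 1020st and 105 in HuC, or 10.4% and 9.32%, against 7.51% and 9.82% over all counted regions under the same minimum. When rows under 1000 bp were left out, the numbers were 108 and 99 of 1094, or 9.87% and 9.05%, against 8.02% and 9.11% over all counted regions. When only the 1020st rows of 300 to 600 bp below that HuC minimum were left out, they were 123 and 129 of 1128, or 10.9% and 11.4%, against 8.09% and 11.4% over all counted regions. That choice takes rows from the 1020st sample alone, so it can only lower the 1020st sum of a region. With these 3 choices the HuC share of members lay close to that of all counted regions, and the 1020st share stayed above it. The 1020st sample thus held 69.0% of the 2-fold calls with all rows, 52.7% from 500 bp, 52.2% from 1000 bp and 48.8% at a common minimum of short rows. With rows of 100000 bp or more alone, which also leaves out all short rows, it held 64.3%. The part of short rows in the balance was not tested.

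**Figure D5:**
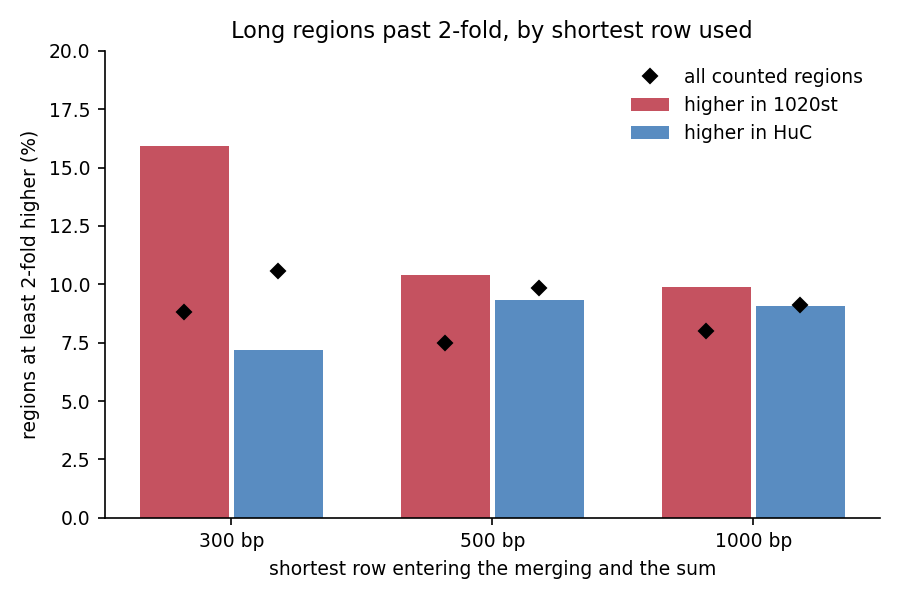
Percentage of regions of 100 kb or more that were at least 2-fold higher in the 1020st sample (red) or the HuC sample (blue), with rows from 300, 500 or 1000 bp entering the merging and the sum; diamonds give the percentage of all counted regions under the same minimum. The red bar falls from 15.9% to 10.4% and 9.87%, and the blue bar goes from 7.17% to 9.32% and 9.05%.

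The long rows alone gave a further reading. In the 679 members with rows of 100 kb or more in both samples, these rows held a median of 53.5% of the region's FPKM in the 1020st sample and 53.0% in the HuC sample. Their summed FPKM had a median log2 ratio of 0.11, and 109 members (16.1%) were at least 2-fold higher in 1020st and 60 (8.84%) in HuC. In the 168 members with a pair of long rows matched at both ends within 100 bp, these rows had median levels of 9.85 and 9.26 FPKM and a median log2 ratio of 0.02, with 24 (14.3%) higher in 1020st and 16 (9.52%) in HuC. Over all counted regions 8.83% and 10.6% were called, but on the sum of rows of any length, since shorter regions hold no row of 100 kb. Among the 679, the long rows of more members were past 2-fold in the 1020st sample than in the HuC sample. The 24 and 16 members with matched rows are small numbers from 1 library each, around a median near equal levels.

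The long rows and the shorter rows of the same region shared no common direction. In 445 members with both kinds in both samples, the log2 ratios of the long and of the shorter rows had the same sign in 208 (46.7%), and across regions Pearson's r was -0.13 and Spearman's rho -0.12. Both were past 2-fold in the same direction in 20 members and in opposite directions in 25. Taken by class, the same sign was seen in 167 of 319 members for rows under 1000 bp, in 63 of 137 for rows of 1 to 10 kb, and in 84 of 156 for rows of 10 to 100 kb. Fragments that overlapping rows share must be divided between them in the FPKM, and the part of this division was not tested.

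The member with the highest ratio was carried by long rows. On chromosome 7, from 32479815 to 32670719, the 1020st sample had 63.7 FPKM and the HuC sample 4.84 FPKM, an 11.1-fold difference. The 1020st sample listed a row of 190876 bp at 11.5 FPKM and one of 150192 bp inside it at 52.3 FPKM, and the HuC sample listed 2 rows of 190782 bp at 3.95 and 0.889 FPKM. No row under 1000 bp was listed there in either library. On the highest row the log2 ratio was 3.43, against 3.47 on the sum.

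In the other 5 members with the highest ratios among those at 5 FPKM or more, shorter rows held most of the 1020st level. On chromosome 7, from 41726065 to 41892303, the libraries had 53.6 and 4.79 FPKM, and 10 rows under 1000 bp made up 37.6 FPKM of the 1020st sum. On chromosome 23, from 11970491 to 12121051, they had 66.8 and 6.88 FPKM, and 5 such rows held 45.9 FPKM. On chromosome 20, from 45257918 to 45521525, they had 18.8 and 1.38 FPKM, of which 16.7 FPKM lay in 5 such rows.

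The long rows of that region on chromosome 20 were close in level, at 2.17 and 1.38 FPKM. On chromosome 11, from 5038100 to 5343940, the sums were 20.6 and 1.94 FPKM, and the 1020st row of 305841 bp was at 0.879 FPKM while 14 rows under 1000 bp held 19.1 FPKM. On chromosome 4, from 49863910 to 50025760, the sums were 59.9 and 7.59 FPKM, and rows of 1340 and 1015 bp held 35.5 and 17.0 FPKM of the 1020st level. From the sum to the highest row, the log2 ratio went from 2.88 to 0.82 on chromosome 11, from 3.06 to 1.35 on chromosome 20 and from 3.24 to 1.54 on chromosome 7. On chromosome 23 it went from 3.11 to 2.75, and on chromosome 4 from 2.83 to 3.41.

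A single row decided the lowest ratio. On chromosome 6, from 17407012 to 17835313, the 1020st sample had 64.5 FPKM over 35 rows and the HuC sample 3623 FPKM over 7 rows, a log2 ratio of -5.79. One HuC row of 186296 bp was at 3601 FPKM, and the highest of the 35 rows of the 1020st sample was at 8.91 FPKM. The 1020st sample also listed a row of 187273 bp with the same end as that HuC row, at 0.485 FPKM. Without that HuC row its library had 22.9 FPKM and the log2 ratio was 1.46, so the higher HuC sum rests on this row. A row was taken from the HuC sample alone, which can only raise the ratio, so 1.46 shows no direction of the rest. Rows under 1000 bp held 48.8 FPKM in the 1020st sample and 6.95 FPKM in the HuC sample. Rows of 1 to 100 kb were nearly equal, at 13.4 and 13.3 FPKM.

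Of the other 5 members with the lowest ratios, 2 had a highest HuC row that spanned most of the region. On chromosome 9, from 9956642 to 10063593, the 1020st sample had rows of 106952 bp at 91.6 and 33.6 FPKM, and the HuC sample had rows of 106447 bp at 143 and 63.8 FPKM and one of 99288 bp at 362 FPKM. The sums of 125 and 569 FPKM gave a 4.52-fold difference. On chromosome 5, from 68052772 to 68171476, the sums were 2.15 and 12.7 FPKM, and the long rows of 117846 and 118151 bp were at 0.821 and 6.41 FPKM.

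In the remaining 3, short or medium rows were the main part of the HuC sum. On chromosome 22, from 16788878 to 16967682, the sums were 3.21 and 25.6 FPKM, with a row of 410 bp at 11.996 FPKM in the HuC sample and long rows at 1.99 and 2.44 FPKM. On chromosome 13, from 3318624 to 3487957, the 1020st sample listed 1 row of 169334 bp at 7.31 FPKM, and the HuC sample 14 rows that summed to 43.8 FPKM. The highest of these was at 7.06 FPKM, so on the highest row the log2 ratio was 0.04, against -2.43 on the sum. On chromosome 4, from 34840407 to 35095651, the sums were 68.7 and 312 FPKM, with a row of 5999 bp at 210 FPKM in the HuC sample.

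Rows of 254794 and 254070 bp surround that short row on chromosome 4. They were at 11.3 FPKM in the 1020st sample and 1.77 FPKM in the HuC sample, so here the long rows were higher in the library in which the region's sum was lower. Chromosome 4 held 34 members in all, with a median log2 ratio of -0.23, and 7 were at least 2-fold higher in 1020st and 2 in HuC, against 8.43% and 8.91% of all counted regions of that chromosome.

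Among the 5 longest members, the first 2 were sums of many weak rows. The longest lay on chromosome 9 from 14845132 to 15484371, with 36.9 FPKM over 25 rows in the 1020st sample and 13.6 FPKM over 10 rows in the HuC sample. Its rows of 100 kb or more summed to 4.07 and 4.86 FPKM, and 21 rows under 1000 bp held 31.9 FPKM of the 1020st sum. Chromosome 8 from 15870217 to 16507533 held the row of 600403 bp, at 2.02 FPKM in the 1020st sample. The longest HuC row there spanned 234027 bp at 2.61 FPKM, and the sums were 32.0 and 21.3 FPKM.

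The next were chromosome 9 from 46950480 to 47442203, at 15.5 and 21.7 FPKM, and chromosome 5 from 60163639 to 60637356, at 32.8 and 37.1 FPKM. On chromosome 5 the rows of 100 kb or more were at nearly the same sum, 18.8 FPKM over 7 rows in the 1020st sample and 19.6 FPKM over 2 rows in the HuC sample. The region on chromosome 8 described among the most abundant was the other of the 5 longest.

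Among the 168 members with matched long rows, those with the most extreme ratios of these rows were looked up after their values were seen. On chromosome 18, from 45504670 to 45629328, the matched rows were at 28.3 FPKM in the 1020st sample and 2.99 FPKM in the HuC sample, a log2 ratio of 2.88, and the whole region had 2.45. On chromosome 17, from 27404192 to 27765689, they were at 20.0 and 3.43 FPKM, a log2 ratio of 2.24, with 1.08 for the whole region. On chromosome 25, from 33050175 to 33248206, they were at 3.88 and 28.4 FPKM, a log2 ratio of -2.59, while the sum over the whole region had 0.18. On chromosome 24, from 12921628 to 13144359, they were at 14.9 and 74.6 FPKM, a log2 ratio of -2.25, with 0.54 for the whole region. The latter 2 regions were thus lower in 1020st on the matched rows and not on the sum. On chromosome 24 the region held 3 rows in the 1020st sample and 1 in the HuC sample. The matched row there was the whole HuC level and only a part of the 1020st level. On chromosome 25 each sample listed 4 rows.

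Chromosomes differed in the members' median log2 ratio from -0.23 on chromosome 4 to 0.36 on chromosome 2, where 12 of 41 members were at least 2-fold higher in 1020st and 1 in HuC, against 9.87% and 9.67% of all counted regions of that chromosome. These numbers of members are too small to set chromosomes apart. Members that followed each other on a chromosome were separated by a median of 613686 bp, and 84 pairs lay within 50 kb. In these pairs the log2 ratios had the same sign in 42 and a Pearson r of -0.07 across pairs, and in 4 pairs both members were past 2-fold in the same direction.

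The 25 regions of 100 kb or more that were no members had rows in a single library. In the 1020st sample alone there were 21, from 0.613 to 13.2 FPKM with a median of 2.98, and 6 of them reached 5 FPKM. The highest lay on chromosome 6 from 16424629 to 16562694, with 12 rows. In the HuC sample alone there were 4, from 1.76 to 3.86 FPKM. At any span, 22655 of 46045 regions met the conditions for counting, against 1130 of 1155 at 100 kb or more. How the regions listed in a single sample divide between the samples at other spans was not analysed here. Whether the numbers 21 and 4 are particular to long regions therefore cannot be said. The missing sample's level was not set to 0 in these regions, because rows appear only above a minimum.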

How the data were processed

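RNA-seq of 2 sorted populations, 1 library each, was analysed. The authors deposited 1 FPKM value per row with a chromosome span and no gene name, per the file headers. Per the submitters' processing notes, TopHat 1.4.0, Cufflinks 2.1.1, Cuffdiff and the build Zv9 were used, with no role given; the sources used here do not give the annotation, assembly settings or filters. Starts count from 0, so 1 was added to printed starts.

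Rows under 300 bp or above 200000 FPKM were dropped, rows of both samples overlapping by 1 bp or more were merged without regard to strand, which is not recorded, and the FPKM of a region were added up for each library. Log2 ratios used FPKM + 1. No test was possible with 1 library per group. The merging and ratios were tested on simulated regions. Python 3.11.15 with pandas 2.3.3, numpy 2.4.6 and scipy 1.17.1 was used.

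Depth came from spans of 300 to 600 bp where at least 60% of values were whole fragments to within 0.01; 85.3% of 16113 rows of the 1020st sample and 84.3% of 7318 of the HuC sample were whole. A count test was not run, since exons are not recorded and the fragments of long rows were not recovered. Intervals for fragments cover counting error only and are not given.

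The members and the comparisons were chosen with earlier results of these data known. Named were 6 members of highest and 6 of lowest log2 ratio, at 5 FPKM or more in either sample, the 5 longest, the 5 most abundant, and the 2 on each side of 100000 bp. Alternatives were other pseudocounts, scalings, filters, row minimums, overlaps and span limits.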

Additional observations from a re-analysis of the deposited data

Results flagged for a closer look

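The span minimum also removed rows whose length was 100 bp, give or take 1 bp. Inside the members' spans there were 169 of them in the 1020st sample and 3 in the HuC sample, and the comparisons do not use them. Their summed FPKM was 84562100 in the 1020st sample, where all rows kept in the members summed to 36113 FPKM. In the HuC sample the 3 rows summed to 2077650 FPKM, against 38979 FPKM in the kept rows. A single such row had a median of 338111 FPKM in the 1020st sample and 670210 FPKM in the HuC sample. Why rows of this length have such values was not tested. Over the whole files there were 835 and 6 such rows.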

How the results depend on the processing

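The balance of the calls moved most with the treatment of short rows. The 180 and 81 members at least 2-fold higher in 1020st and in HuC became 117 and 105 from rows of 500 bp and 108 and 99 without rows under 1000 bp. With the short 1020st rows below the HuC minimum left out they were 123 and 129, with 16 against 10 at 4-fold in HuC and a median log2 ratio of -0.063, and with rows of 100000 bp or more alone 108 and 60 of 676 regions. These last 3 alternatives were chosen after seeing the data. With a pseudocount of 5 the 2-fold counts were 90 and 44 and the 4-fold counts 9 and 4, against 23 and 10; with 0.1, 41 members were 4-fold higher in 1020st. Scaling both samples to the same FPKM sum raised the median log2 ratio of members from 0.08 to 0.22 and that over all counted regions from -0.04 to 0.07, with 6 members 4-fold higher in HuC. From 150000 bp there were 575 members, of which 391 had a row of 100000 bp or more in both samples; 99 and 34 were past 2-fold, and 5 past 4-fold in HuC. From 50000 bp there were 2815, with 391 and 267 past 2-fold and 37 and 35 past 4-fold. The limits change the number of regions by construction; for the other shifts the cause was not tested. Of named regions past 2-fold, the sign turned on chromosome 13 with the highest row (log2 ratio 0.044), on chromosome 4 (34840407 to 35095651) with long rows alone (2.15), and on chromosome 9 (14845132 to 15484371) with long rows alone (-0.21) and without rows under 1000 bp (-0.50). With long rows alone, 15 of the 24 named regions had a value, 9 of them with the same sign and 6 with the other. No paired analysis was possible because there was a single library per group, and for the same reason none could be left out. Depth limits what short rows show, and the fragments of long rows are unknown.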
